A study of Mus musculus with 6 samples.

Results

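The nitric oxide and cyclic GMP pathway of the vessel wall was followed through 8 genes in the thoracic aorta of mice: Nos3, Ddah1, Ddah2, Gucy1a1 (Gucy1a3 in older annotation), Gucy1b1 (Gucy1b3 in older annotation), Prkg1, Pde5a and Cav1. The genes were taken by symbol, with every probe annotated to them. That gave 18 probes of the 45281 on the array, of which 14 were detected on at least 2 of the 6 arrays, and all 8 genes had at least 1 such probe among the 9837 genes measured. The 4 groups were TG mice given Ang-II (2 arrays), TG mice given saline (1 array), WT littermates given Ang-II (2 arrays) and WT littermates given saline (1 array). TG SM-CaMKIIN mice carry a peptide inhibitor of the calcium/calmodulin-dependent kinase II in smooth muscle only, no label names the promoter that drives it, and the WT mice had a C57 Bl/6 background. All mice were 12 weeks old and carried an osmotic minipump for 14 days, which delivered angiotensin II (Ang-II) at 1.25 µg/kg/min in 0.9% saline or the saline alone. RNA of 5 mice per group was pooled, and the labels do not say whether the 2 arrays of an Ang-II group came from separate RNA pools, and the p-values cover only the spread from array to array, part or all of which may be technical.

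Nitric oxide is made from L-arginine by nitric oxide synthase, whose endothelial form is encoded by Nos3. It diffuses into smooth muscle, binds the soluble guanylate cyclase and raises cyclic GMP, which activates the cyclic GMP-dependent protein kinase and relaxes the vessel. Methylated arginines such as asymmetric dimethylarginine inhibit the synthase until they are hydrolysed by dimethylarginine dimethylaminohydrolase, and phosphodiesterases end the signal by breaking down cyclic GMP.

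The promoters of 3 members are shown: that of Ddah1, the member with the largest change, and those of Gucy1a1 and Gucy1b1, which encode the subunits of 1 enzyme and both fell in the average over the genotypes. The windows are RefSeq sequences of build GRCm38.p6, each of 300 bases from 250 before to 50 after an annotated start, at chr3:145758442-145758741 on the plus strand for Ddah1, chr3:82145601-82145900 on the minus strand for Gucy1a1 (the first of its listed windows) and chr3:82074662-82074961 on the minus strand for Gucy1b1. Capitals mark matches, on either strand, to the CCAAT box (spelled as its name), to the GC box spelled GGGCGG, to the TATA box with its letters TATAAA, or to the CArG box, the element bound by serum response factor.
Ddah1: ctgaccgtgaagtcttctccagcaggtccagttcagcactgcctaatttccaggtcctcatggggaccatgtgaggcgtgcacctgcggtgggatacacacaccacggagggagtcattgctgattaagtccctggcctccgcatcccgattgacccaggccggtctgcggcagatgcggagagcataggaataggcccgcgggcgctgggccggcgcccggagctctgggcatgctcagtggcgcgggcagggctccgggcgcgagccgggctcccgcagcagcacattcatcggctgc
Gucy1a1: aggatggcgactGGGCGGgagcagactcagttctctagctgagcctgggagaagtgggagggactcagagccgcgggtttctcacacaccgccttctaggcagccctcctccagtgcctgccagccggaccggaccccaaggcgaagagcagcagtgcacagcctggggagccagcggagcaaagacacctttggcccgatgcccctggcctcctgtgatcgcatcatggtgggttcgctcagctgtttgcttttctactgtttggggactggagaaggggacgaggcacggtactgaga
Gucy1b1: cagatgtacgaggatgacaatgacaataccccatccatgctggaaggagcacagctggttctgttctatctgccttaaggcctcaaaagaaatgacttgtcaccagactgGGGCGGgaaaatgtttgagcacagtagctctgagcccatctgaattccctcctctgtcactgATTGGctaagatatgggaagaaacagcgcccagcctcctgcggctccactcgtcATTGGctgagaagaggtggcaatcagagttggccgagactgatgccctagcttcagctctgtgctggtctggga
Gucy1b1 and Gucy1a1 are neighbours, with 0 genes listed between them in the RefSeq table of GRCm38.p6, and their windows differ. The Gucy1b1 window held CCAAT boxes at positions -78 and -24 from the start and a GC box at -140, and the Gucy1a1 window held a GC box at -238. The Ddah1 window held none of the 4 motifs. Across all 32851 promoters of the same length, 37.4% held a CCAAT box, 35.7% a GC box, 13.6% a TATA box and 1.63% a CArG box, and no overlap between motifs arose in the windows shown. Promoters of 7 of the 8 members were matched, in 10 windows, and that of Nos3 was not.

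Signals are given as normalized log2 values, which were background-corrected and quantile-normalized, so that a difference of 1 is a doubling. A probe counted as detected at a detection p under 0.01, and between 15393 and 16075 probes were detected per array, with a median of 41 to 43 beads per probe. A limma model of 4 group means over all 6 arrays gave the differences, and one passed if its p, adjusted by Benjamini and Hochberg's method across the 16749 detected probes, was under 0.05. The error of each lone saline array was taken to equal that of the replicated Ang-II arrays. Each gene is represented by its brightest detected probe, and every other probe of a member is given too. Camk2n1 and Camk2n2, the mouse genes of the natural CaMKII inhibitor proteins, did not separate TG from WT arrays: log2 signals over the 6 arrays ran from 11.47 to 11.70 for Camk2n1 and from 8.69 to 8.93 for Camk2n2, with limma adjusted p of 0.999 and 0.990 for TG against WT under Ang-II. No source says whether their probes match the transgene, so its expression was not checked here. Responses to Ang-II in TG and WT share no array, but each comparison between genotypes uses arrays of both responses.

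Ang-II was followed by a large rise of Ddah1 in both genotypes and by lower signals of the synthase and both cyclase subunits. In TG aortas, Ddah1 rose 5.30-fold and Nos3 fell 1.93-fold. In WT aortas, Ddah1 rose 7.59-fold and Gucy1a1 fell 1.91-fold. Averaged over both genotypes, Ddah1 rose, while Nos3, Gucy1a1 and Gucy1b1 fell. The brightest Prkg1 probe fell too, but another Prkg1 probe rose. Thus 2 of the 8 members passed in TG (1 higher, 1 lower), where 6.78% of all genes passed (5.23% higher and 1.56% lower). In WT 2 of the 8 passed as well (1 higher, 1 lower), where 8.72% of all genes did (6.09% higher and 2.63% lower). The average over both genotypes, which has the smaller error, called 5 of 8 by the brightest probe (1 higher, 4 lower, Prkg1 among them), where 17.5% of all genes passed, 10.4% higher and 7.01% lower. The median log2 difference of the 8 members was -0.46 in TG, -0.36 in WT and -0.34 in the average, beside medians of -0.06, -0.05 and -0.06 over all 9837 genes. No test was made of the 8 genes as a set.

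**Figure D1:**
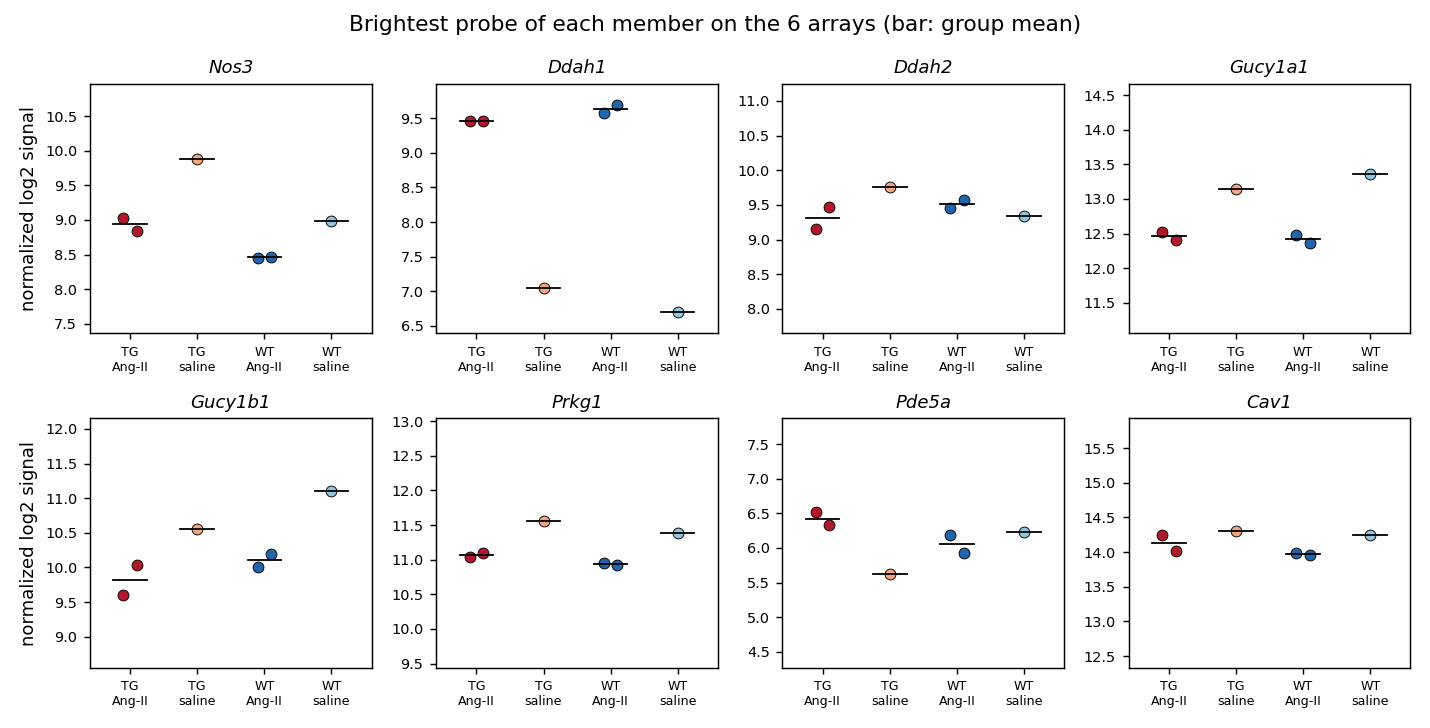
Normalized log2 signal (y axis) of the brightest probe of each member on each of the 6 arrays (points), with bars at the group means; each panel has its own signal range, and all span the same number of log2 units. Ddah1 stood at 9.46 or above on the 4 Ang-II arrays and at 7.06 or below on the saline arrays, while Cav1 spanned 0.34 over all arrays.

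Nos3 encodes the endothelial nitric oxide synthase, and its brightest probe (ILMN_2788593) read 9.02 and 8.85 in TG Ang-II, against 9.88 in TG saline. In WT, it read 8.45 and 8.46 under Ang-II, against 8.98 under saline. Ang-II arrays were below the saline array within each genotype, and TG saline was the highest of all arrays. In order, TG saline stood first, WT saline and TG Ang-II followed at levels that overlapped, and WT Ang-II was lowest. The fall was 0.95 ± 0.16 on the log2 scale in TG (SE; limma adjusted p = 0.0284), and 0.52 ± 0.16 in WT, which did not pass (limma adjusted p = 0.106). On average over the genotypes the log2 difference was -0.74 ± 0.11 (limma adjusted p = 0.0121).

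The other Nos3 probes moved the same way. ILMN_2713835 read 8.25 and 8.44 in TG Ang-II, against 9.40 in TG saline, and 7.92 and 7.995 in WT Ang-II, against 8.55 in WT saline. ILMN_2729153 read 7.87 and 7.69 in TG Ang-II, against 8.80 in TG saline, and 7.47 and 7.15 in WT Ang-II, against 8.08 in WT saline. All 3 detected probes passed in TG (7.57% of all probes did) and in the average (19.2%), and 0 of them passed in WT (9.06%), where each had an unadjusted p under 0.05. The log2 differences in TG were -1.05 (limma adjusted p = 0.0232) and -1.02 (limma adjusted p = 0.0397) for these probes. The remaining Nos3 probe, ILMN_2430542, was detected on 0 arrays. The TG call of the brightest probe did not hold with no detection filter (limma adjusted p = 0.0557), without either WT Ang-II array (0.0698 each) or without TG Ang-II array 2 (0.0672), whereas the average held in all 13 alternatives.

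RNA was measured in bulk aorta, so that fewer endothelial cells and less Nos3 RNA per cell cannot be told apart. Of 17 endothelial markers, 15 were measured (Kdr and Erg were not detected on at least 2 arrays). In TG, 1 of the 15 rose (Robo4) and 3 fell (Pecam1, Vwf and Icam2), with a median of -0.34. In WT, 2 rose (Cdh5 and Robo4) and 0 fell, with a median of -0.04 and 2 at an unadjusted p under 0.05 for a fall. Their summed linear signal was 19780 and 19560 in TG Ang-II, against 26240 in TG saline, and 16970 and 15760 in WT Ang-II, against 16400 in WT saline, so TG saline was highest here too. The brightest of these markers included Egfl7 and Ptprb, a secreted factor and a receptor phosphatase of endothelium, together with Esam and Vwf. Vwf, the von Willebrand factor, fell by 0.74 in TG (limma adjusted p = 0.0459). Pecam1 read 10.66 and 10.77 in TG Ang-II, against 11.69 in TG saline. Robo4 went the other way, with 9.35 and 9.29 in TG Ang-II, against 8.20 in TG saline. In WT, Robo4 read 8.99 and 9.15 under Ang-II, against 7.78 under saline. Set against the mean log2 signal of the 15 markers on the same array, Nos3 stood at -0.99 and -1.11 in TG Ang-II, against -0.35 in TG saline, and -1.23 and -1.19 in WT Ang-II, against -0.61 in WT saline. On that scale Nos3 was lower under Ang-II by a log2 difference of -0.70 in TG and -0.59 in WT, without a test. Single markers differed by -0.98 to 1.13 in TG and by -0.80 to 1.28 in WT. Nos3 itself, at -0.95 in TG and -0.52 in WT, lay within those ranges.

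**Figure D2:**
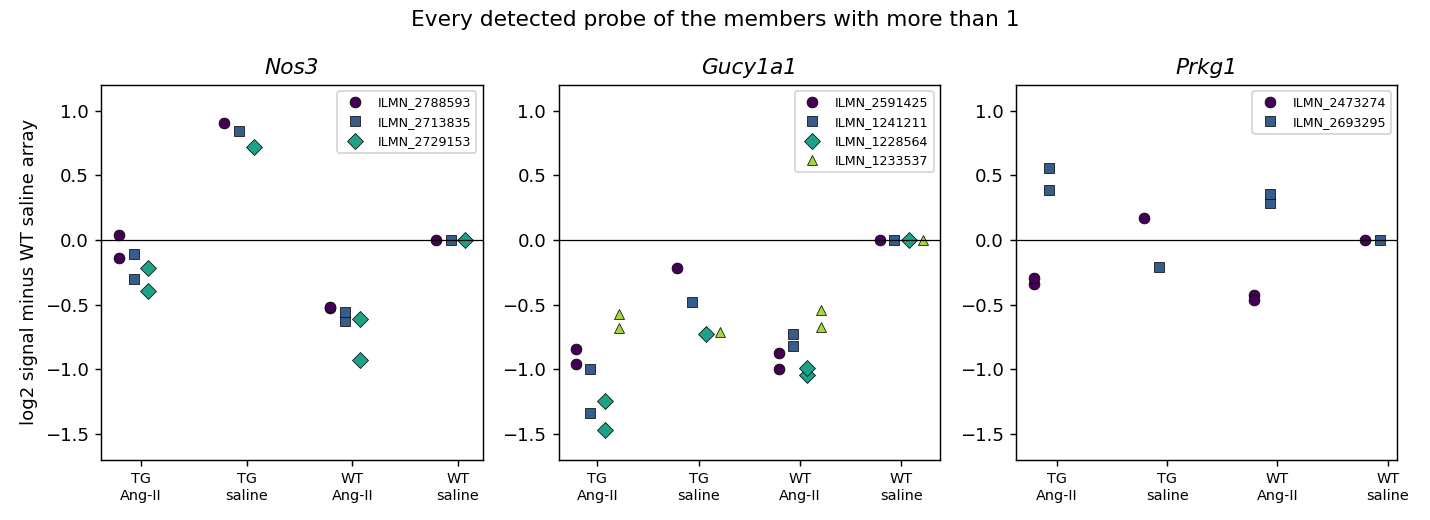
Log2 signal minus that of the WT saline array (y axis) for every detected probe of Nos3, Gucy1a1 and Prkg1 on the 6 arrays, with a symbol for each probe and the line at 0 for the WT saline array itself. The 3 Nos3 probes lay together in each group, 3 of the 4 Gucy1a1 probes lay below their saline arrays in both genotypes, and the 2 Prkg1 probes lay on opposite sides of 0 under Ang-II.

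Ddah1 encodes the enzyme that hydrolyses asymmetric dimethylarginine to citrulline, and the array holds 1 probe for it (ILMN_1256676). It read 9.46 and 9.46 in TG Ang-II, against 7.06 in TG saline. WT arrays read 9.57 and 9.69 under Ang-II, against 6.71 under saline. All Ang-II arrays stood well above both saline arrays. The same difference was visible before normalization, where the mean bead intensity was 685 and 673 in TG Ang-II, against 230 in TG saline, and 834 and 857 in WT Ang-II, against 236 in WT saline, each over 39 to 53 beads. The rise was 2.41 ± 0.15 on the log2 scale in TG (limma adjusted p = 0.00273) and 2.93 ± 0.15 in WT (limma adjusted p = 0.00267). By size, it ranked 38 of 9837 genes in TG and 7 in WT, counted from the largest rise. The difference between the 2 rises was -0.52 ± 0.22 and did not pass (limma adjusted p = 0.374; 95% interval -1.06 to 0.02). In all 13 alternatives the Ddah1 rise passed in TG, in WT and in the average, with adjusted p no higher than 0.0174, 0.0427 and 0.0127.

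Many markers of fibroblasts and macrophages rose with Ddah1 in both genotypes, and many fat cell markers rose in WT only. Of 11 fibroblast markers, 4 rose and 0 fell in TG (median 0.60), and 6 rose and 0 fell in WT (median 0.79); among the brightest were Dcn, Serpinf1, Fbln1 and Col1a1, genes of secreted proteins, most of them of the matrix. Their summed linear signal was 131200 and 126400 in TG Ang-II, against 84290 in TG saline, and 131300 and 129700 in WT Ang-II, against 77420 in WT saline. Of 10 macrophage markers measured, led in signal by Lyz2, C1qb, Mrc1 and C1qc, 8 rose in TG (median 0.98) and 7 in WT (median 0.97). Their summed signal was 11510 and 11930 in TG Ang-II, against 5690 in TG saline, and 13550 and 14180 in WT Ang-II, against 7207 in WT saline, so both lists were high on all Ang-II arrays. Of 8 fat cell markers measured, 0 rose and 1 fell in TG (median 0.12), and 6 rose in WT (median 1.56), while Retn and Fabp4 were not detected on at least 2 arrays. Relative to the mean log2 of the fibroblast markers, Ddah1 was still higher under Ang-II by 1.69 in TG and 2.09 in WT. The values were 1.38 in TG and 1.88 in WT relative to the macrophage markers, and 2.27 in TG and 1.46 in WT relative to the fat cell markers. The part of these cells in the Ddah1 result was not tested beyond those values.

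Ddah2 encodes the paralog of Ddah1 and did not follow it. Its single probe (ILMN_2770183) read 9.15 and 9.47 in TG Ang-II, against 9.75 in TG saline. In WT it read 9.46 and 9.56 under Ang-II, against 9.34 under saline. The arrays leaned down in TG and up in WT, within a range of 0.61 over all 6. No comparison passed: the log2 difference was -0.44 ± 0.19 in TG (limma adjusted p = 0.228) and 0.17 ± 0.19 in WT (limma adjusted p = 0.605), and the difference between them was -0.61 ± 0.27 (limma adjusted p = 0.402).

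**Figure D3:**
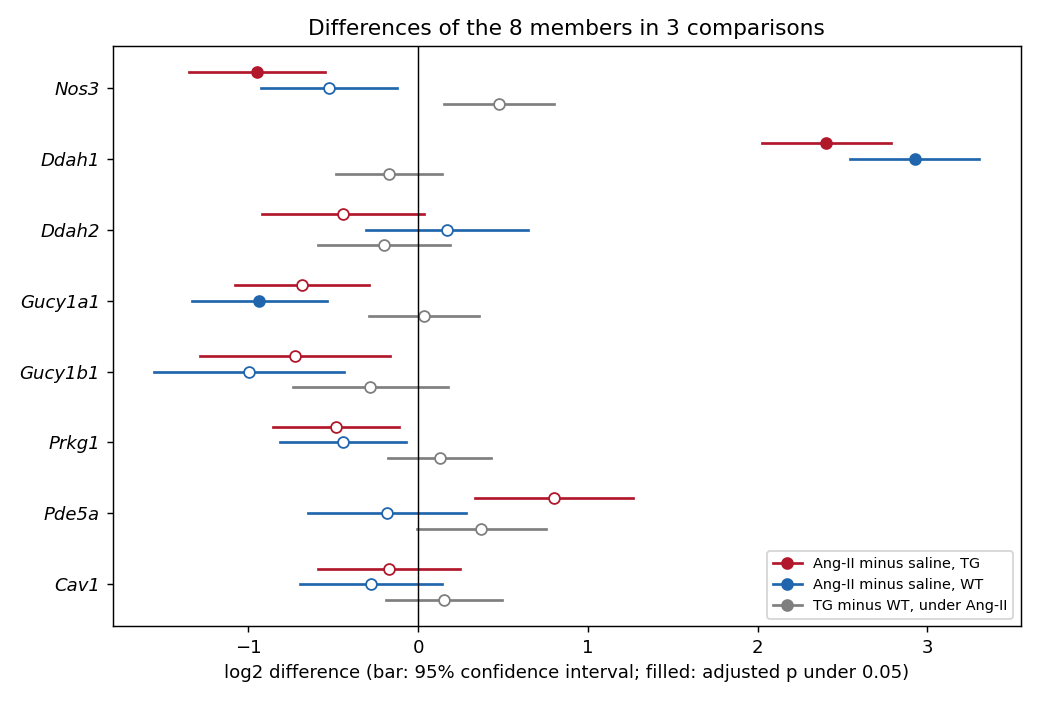
Log2 differences (x axis) of the 8 members in 3 comparisons, namely Ang-II minus saline in TG, Ang-II minus saline in WT, and TG minus WT under Ang-II, with 95% confidence intervals as bars and filled points where the adjusted p was under 0.05. Ddah1 lay at 2.41 in TG and 2.93 in WT, and the filled points on the lower side were Nos3 in TG and Gucy1a1 in WT.

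Gucy1a1 and Gucy1b1 encode the alpha and beta subunits of the soluble guanylate cyclase, the nitric oxide receptor of smooth muscle. The brightest Gucy1a1 probe (ILMN_2591425) read 12.52 and 12.40 in TG Ang-II, against 13.14 in TG saline. WT arrays read 12.49 and 12.37 under Ang-II, against 13.36 under saline. Both genotypes ended at overlapping levels under Ang-II, and both saline arrays were higher. The fall was 0.93 ± 0.16 in WT (limma adjusted p = 0.0262), the TG difference was -0.68 ± 0.16 and did not pass (limma adjusted p = 0.0627), and the average was -0.81 ± 0.11 (limma adjusted p = 0.00902). Leaving out WT Ang-II array 1 or 2 ended the WT call (limma adjusted p = 0.0912 and 0.112), while the average held in all 13 alternatives.

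Among the other Gucy1a1 probes, ILMN_1228564 read 8.49 and 8.71 in TG Ang-II, against 9.22 in TG saline, and 8.91 and 8.97 in WT Ang-II, against 9.95 in WT saline, and it passed in WT (log2 -1.02, limma adjusted p = 0.0248) and in the average (-0.82, 0.0102). ILMN_1241211 read 9.01 and 9.35 in TG Ang-II, against 9.86 in TG saline, and 9.52 and 9.62 in WT Ang-II, against 10.34 in WT saline, and it passed in the average only (-0.73, 0.0206). ILMN_1233537, annotated to another transcript than the other 3, read 6.68 and 6.79 in TG Ang-II, against 6.65 in TG saline, and 6.82 and 6.69 in WT Ang-II, against 7.36 in WT saline. That probe passed nowhere, and its TG arrays did not fall.

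Gucy1b1 has 1 probe (ILMN_1250403), which read 9.61 and 10.04 in TG Ang-II, against 10.55 in TG saline. In WT it read 10.01 and 10.20 under Ang-II, against 11.10 under saline. Each genotype was lower under Ang-II, WT saline was the highest array, and the Ang-II arrays of the genotypes overlapped. Neither genotype passed alone, with -0.73 ± 0.23 in TG (limma adjusted p = 0.121) and -0.996 ± 0.23 in WT (limma adjusted p = 0.0523). The average of -0.86 ± 0.16 passed (limma adjusted p = 0.0195), but not with no detection filter (0.0536) or without WT Ang-II array 1 (0.0609) or 2 (0.0523).

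Several smooth muscle markers fell under Ang-II as well. Of 13 measured, 1 rose (Myocd) and 1 fell (Ppp1r14a) in TG, with a median of -0.23. In WT, 0 rose and 3 fell (Tagln, Lmod1 and Ppp1r14a), with a median of -0.48. In the average, 1 rose (Myocd) and 6 fell, with a median of -0.38. The brightest were the contractile genes Acta2, Mylk, Myh11 and Smtn, with log2 signals from 13.30 to 15.19 over these genes and all arrays. Smtn was among the 6 that fell in the average, and in WT it read 13.39 and 13.30 under Ang-II, against 13.94 under saline. The summed linear signal of all 13 markers was 106200 and 108300 in TG Ang-II, against 114000 in TG saline. In WT it was 97530 and 96840 under Ang-II, against 120600 under saline. Relative to the mean log2 of these markers, Gucy1a1 was lower under Ang-II by a log2 difference of -0.52 in TG and -0.48 in WT, and Gucy1b1 by -0.56 in TG and -0.54 in WT. Single markers differed by -0.91 to 1.49 in TG and by -1.16 to 0.60 in WT. Gucy1a1 itself (-0.68 in TG, -0.93 in WT) and Gucy1b1 (-0.73 and -0.996) lay within those ranges. The part of smooth muscle content in the cyclase result was not tested otherwise.

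**Figure D4:**
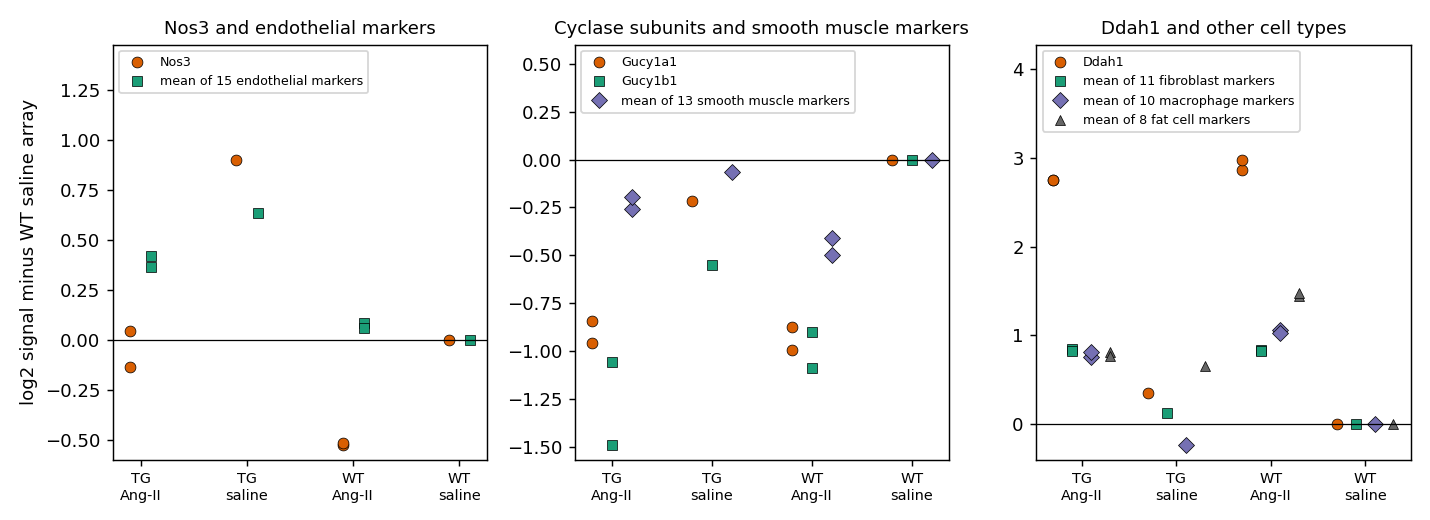
Log2 signal minus that of the WT saline array (y axis) on the 6 arrays, for Nos3 with the mean of 15 endothelial markers, for Gucy1a1 and Gucy1b1 with the mean of 13 smooth muscle markers, and for Ddah1 with the means of fibroblast, macrophage and fat cell markers. Points are single arrays; Nos3 and both cyclase subunits lay below their marker means on every Ang-II array, and Ddah1 lay above its marker means on every Ang-II array.

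Prkg1 encodes the cyclic GMP-dependent protein kinase I, and its probes disagreed. The brightest (ILMN_2473274) read 11.04 and 11.10 in TG Ang-II, against 11.55 in TG saline, and 10.96 and 10.92 in WT Ang-II, against 11.39 in WT saline. The dimmer probe (ILMN_2693295), annotated to the same transcript, read 6.79 and 6.96 in TG Ang-II, against 6.19 in TG saline, and 6.69 and 6.76 in WT Ang-II, against 6.40 in WT saline. In these normalized values the bright probe was thus lower and the dim probe higher under Ang-II, in each genotype. Before normalization, the dim probe had a mean bead intensity of 183 and 193 in TG Ang-II, against 166 in TG saline. In WT that intensity was 194 and 195 under Ang-II, against 210 under saline, and so was not higher. Both probes passed in the average, at -0.46 ± 0.11 (limma adjusted p = 0.0342) and 0.50 ± 0.11 (limma adjusted p = 0.0344), and neither passed within a genotype. With the mean of both probes, the average difference was 0.02 (limma adjusted p = 0.906), so these arrays set no direction for the gene. The call of the bright probe was also lost when any 1 of the 4 Ang-II arrays was left out (limma adjusted p = 0.0579 to 0.0913). Of the remaining Prkg1 probes, ILMN_2576627 was detected on 1 array and ILMN_1253373 on 0.

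Pde5a encodes the phosphodiesterase that hydrolyses cyclic GMP in smooth muscle, and it was close to the detection limit. Its detected probe (ILMN_1239797) read 6.52 and 6.33 in TG Ang-II, against 5.62 in TG saline, where it was not well above background. WT arrays read 6.18 and 5.92 under Ang-II, against 6.24 under saline. The mean of the TG Ang-II arrays was above the TG saline array by at least 1.69-fold, a bound taken from the lowest detected signal of the saline array. The difference did not pass (log2 0.80 ± 0.19, limma adjusted p = 0.0626). In WT the difference was -0.18 ± 0.19 (limma adjusted p = 0.567), and the difference between the genotypes' responses was 0.99 ± 0.27 (limma adjusted p = 0.185). The other Pde5a probe (ILMN_2764541) was detected on 0 arrays.

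Cav1 encodes caveolin, the caveolar coat protein that binds and inhibits the endothelial synthase. Its probe (ILMN_2632665) read 14.24 and 14.02 in TG Ang-II, against 14.30 in TG saline, and 13.99 and 13.96 in WT Ang-II, against 14.25 in WT saline. The values spanned 0.34, the narrowest range among the brightest probes of the 8 members. The log2 difference was -0.17 ± 0.17 in TG (95% interval -0.59 to 0.25, limma adjusted p = 0.584) and -0.28 ± 0.17 in WT (95% interval -0.69 to 0.14, limma adjusted p = 0.347).

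Between the genotypes, 0 of the 8 members passed in limma under Ang-II (1 at an unadjusted p under 0.05), where 5.35% of all genes passed, and 0 under saline (2 at an unadjusted p under 0.05), where 0.163% did. The test of the difference between the Ang-II responses called 0 of 8 as well (1 at an unadjusted p under 0.05, Pde5a), where 1.26% of all genes passed. Nos3 stood nearest to the threshold: TG was above WT by 0.48 ± 0.13 under Ang-II (limma adjusted p = 0.106) and by 0.90 ± 0.19 under saline (limma adjusted p = 0.134), higher on every TG array than on the WT arrays of the same treatment. On both TG Ang-II arrays 26.6% of all genes stood above both WT Ang-II arrays. Nos3 passed in both genotype comparisons with a trended robust prior (limma adjusted p = 0.0271 under Ang-II and 0.00891 under saline) and with quantile normalization without background correction (0.0269 and 0.00693). Those settings called more of all genes too, 11.7% and 11.2% under Ang-II and 4.87% and 4.3% under saline. Endothelial markers leaned the same way, with a median log2 difference of 0.27 under Ang-II and 0.68 under saline and with 1 of 15 higher under Ang-II (Cldn5, a tight junction protein). Relative to the mean of the endothelial markers, Nos3 was higher in TG by 0.16 under Ang-II and 0.27 under saline. Intervals for the other members stayed wide, for example -0.48 to 0.14 for Ddah1 and -0.29 to 0.36 for Gucy1a1 under Ang-II.

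**Figure D5:**
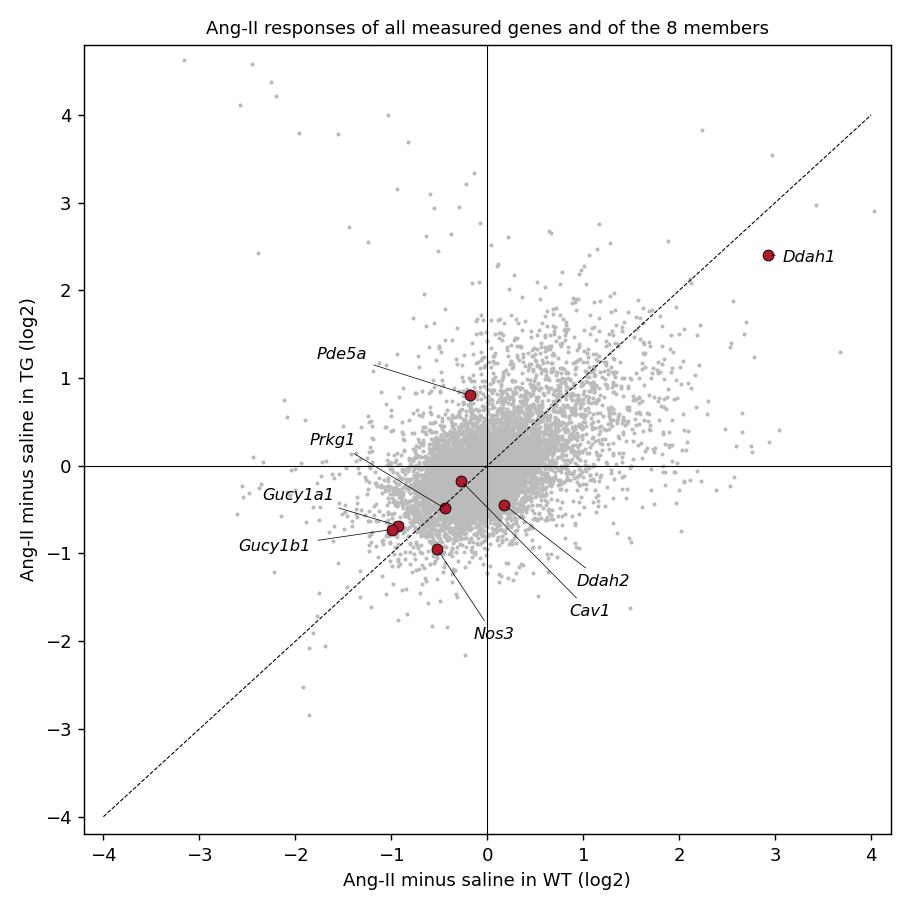
Ang-II minus saline in TG (y axis, log2) against Ang-II minus saline in WT (x axis, log2) for all measured genes (grey points) and the 8 members (red points); the dashed line marks equal responses, and 5 genes lie outside the axes. Ddah1 stood far out in both genotypes (2.41 in TG, 2.93 in WT), Gucy1a1 and Gucy1b1 lay side by side below 0 in both, and Pde5a was the member above 0 in TG and below 0 in WT.

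Around the 8 members, 66 further genes of the pathway were listed, 62 had a named probe and 47 were measured. Of these, 3 rose and 1 fell in TG, 2 rose and 3 fell in WT, and 4 rose and 4 fell in the average, each by the brightest probe. These counts are set beside 6.78% of all genes passing in TG, 8.72% in WT and 17.5% in the average. Cavin4 is among the risers in TG and in the average. Its probe met the detection filter only through the 2 TG Ang-II arrays, so its part in these counts supports nothing. The median log2 difference of the 47 genes was -0.07 in TG, -0.14 in WT and -0.11 in the average, where the medians over all genes were -0.06, -0.05 and -0.06. Genes that bind the synthase or supply its arginine and cofactor (14 measured) passed once in TG and not in WT (0 in limma, and 1 at an unadjusted p under 0.05, Nostrin). The TG call was Ass1, which rebuilds arginine from citrulline and fell by 0.81 ± 0.15 (limma adjusted p = 0.0366). Ass1 read 7.59 and 7.67 in TG Ang-II, against 8.44 in TG saline, and 7.70 and 7.72 in WT Ang-II, against 7.56 in WT saline. Nosip, which binds the synthase, did not pass by its brightest probe, but another of its probes (ILMN_2621588) fell in TG (log2 -0.83, limma adjusted p = 0.0338) and in WT (-0.78, 0.0362). Of the 5 measured genes that methylate arginines, 0 passed in limma in any comparison (in the average, 2 had an unadjusted p under 0.05 for a fall). Prmt8 and Agxt2, the latter listed for the breakdown of methylarginines, were not detected on at least 2 arrays. An additional probe of Prmt6, an arginine methyltransferase (ILMN_1245701), fell in the average (-0.62, limma adjusted p = 0.0269).

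Among 8 measured genes for other phosphodiesterases, a cyclase subunit and cyclic nucleotide transporters, 2 passed in WT and in the average and 0 in TG. Of all genes, 8.72% passed in WT, 17.5% in the average and 6.78% in TG. Both were phosphodiesterases that rose. Pde1b, a calcium/calmodulin-stimulated phosphodiesterase, read 8.05 and 7.99 in TG Ang-II, against 7.63 in TG saline, and 8.40 and 8.32 in WT Ang-II, against 7.53 in WT saline. It passed in WT (log2 0.84 ± 0.15, limma adjusted p = 0.031) and in the average (0.61 ± 0.11, 0.017). Pde2a, a phosphodiesterase stimulated by cyclic GMP, read 5.94 and 6.25 in TG Ang-II, against 5.76 in TG saline, and 6.18 and 6.50 in WT Ang-II, against 4.98 in WT saline, where it was not well above background. It was at least 1.64-fold higher in WT Ang-II than in WT saline (limma adjusted p = 0.0228). Several phosphodiesterase genes (Pde3b, Pde9a, Pde10a, Pde11a) were not detected on at least 2 arrays.

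Genes of the kinase list (11 measured), which holds its targets and the related kinase Prkg2, went both ways. Kcnmb1, the beta subunit of the calcium-activated potassium channel of smooth muscle, read 10.88 and 10.98 in TG Ang-II, against 11.21 in TG saline, and 10.87 and 10.69 in WT Ang-II, against 11.61 in WT saline. It fell by 0.82 ± 0.17 in WT (limma adjusted p = 0.0393) and by 0.55 ± 0.12 in the average (limma adjusted p = 0.0284). The thromboxane receptor gene Tbxa2r (-0.70 ± 0.11, limma adjusted p = 0.0129) and Irag1, which links the kinase to the inositol trisphosphate receptor (-0.43 ± 0.11, limma adjusted p = 0.0447), fell in the average. Ppp1r12a, the targeting subunit of myosin phosphatase, rose by 0.88 ± 0.18 in TG on its brightest probe (limma adjusted p = 0.0449), while its other probe fell in the average (-0.49, 0.0351).

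By the brightest probe, Pln and Cavin4 were the 2 of the 47 genes that passed the test of a difference between the Ang-II responses. Of all genes, 1.26% passed that test. Pln encodes phospholamban, an inhibitor of the calcium pump of the sarcoplasmic reticulum, and read 9.98 and 10.08 in TG Ang-II, against 7.31 in TG saline, and 6.48 and 6.25 in WT Ang-II, against 7.81 in WT saline. Its signal rose in TG (2.72 ± 0.17, limma adjusted p = 0.00273) and fell in WT (-1.44 ± 0.17, limma adjusted p = 0.0103). Cavin4, a caveolar coat protein of heart and skeletal muscle, read 6.81 and 6.89 in TG Ang-II, against 4.76 in TG saline, and 4.78 and 4.64 in WT Ang-II, against 4.87 in WT saline. Only its TG Ang-II arrays were well above background, with a mean at least 2.26-fold above TG saline and at least 2.43-fold above WT Ang-II. The probe met the detection filter through those 2 arrays alone, so its differences are a description and its calls support nothing. Heart muscle markers moved with these genes: of 9 measured, 6 rose and 0 fell in TG (median 2.62), and 0 rose and 6 fell in WT (median -1.97). Their summed linear signal was 16820 and 16230 in TG Ang-II, against 3034 in TG saline, and 2317 and 2462 in WT Ang-II, against 4364 in WT saline, with Myl4, Actc1, Ryr2 and Mb the brightest. Myh6, the alpha cardiac myosin heavy chain, read 10.79 and 10.81 in TG Ang-II, against 7.01 in TG saline, and 4.79 and 5.30 in WT Ang-II, against 7.01 in WT saline. Nppa, Tnni3 and Sln, among the 6 markers that rose in TG, were each detected on 3 arrays. They met the filter only through the 2 TG Ang-II arrays, so their calls too are a description. The part of heart muscle tissue in the Pln and Cavin4 results was not tested.

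Among the genes of caveolae (9 measured), Cavin1, the coat protein found with Cav1 in most cells, fell by 0.88 ± 0.15 in WT on its brightest probe (limma adjusted p = 0.0262). Its other probe (ILMN_1243992) went the other way, at least 4.85-fold higher in TG Ang-II than in TG saline (limma adjusted p = 0.00319) and with a log2 difference of 0.54 ± 0.16 in WT (limma adjusted p = 0.101). For that probe the difference of the responses passed as well (1.88 ± 0.23, limma adjusted p = 0.0306). An additional Ehd2 probe (ILMN_2554000) rose in TG (0.93, limma adjusted p = 0.0265), where the brightest did not pass. Between the genotypes under Ang-II, 3 of the 47 genes were higher and 1 lower in TG, where 5.35% of all genes passed. Besides Pln (3.66 ± 0.14, limma adjusted p = 0.000229) and Cavin4, Gchfr, the feedback regulator of tetrahydrobiopterin synthesis, was at least 1.26-fold higher in TG, but it was detected on 3 arrays and met the filter only through the TG arrays, so this too is a description. Slc7a2, an arginine transporter, was lower in TG (-0.998 ± 0.15, limma adjusted p = 0.0224). Under saline 0 of the 47 passed in limma (at an unadjusted p under 0.05, 4 were higher and 6 lower), where 0.163% of all genes did.

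Red cell markers moved in WT as well: 0 of 5 red cell markers, among them Hbb-bs, Hba-a1 and Hbb-bt, passed in TG (0 had an unadjusted p under 0.05), and 5 rose in WT (median 2.02). Their summed linear signal was 47040 and 52160 in TG Ang-II, against 43940 in TG saline, and 92340 and 91530 in WT Ang-II, against 24390 in WT saline. Among the 5, Slc4a1 was detected on the 2 WT Ang-II arrays alone and met the filter only through them. Its rise is thus a description and its call supports nothing. The part of red cells in the results of the members was not tested.

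For the 3 members whose group means spanned at least 1 log2 unit, the genes with the most similar pattern were sought among 9610 named genes, by the root mean square difference of log2 values centred on each gene's own mean over the 6 arrays. Nos3 was closest to Igf2 (0.0353), Gata2 (0.0935) and Tmem108 (0.106). Igf2 read 10.15 and 10.01 in TG Ang-II, against 11.01 in TG saline, and 9.50 and 9.55 in WT Ang-II, against 10.08 in WT saline, and so shared the high TG saline array and the low WT Ang-II arrays. Gucy1b1 was closest to Atp1b2 (0.0706), Mapk8ip3 (0.101) and Sntg2 (0.107), with WT saline the highest array in each. Ddah1 was closest to C1qtnf3 (0.272), Depp1 (0.307) and Angptl1 (0.315), at larger distances. With 6 arrays in 4 groups, such a match describes these arrays only.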

How the data were processed

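Thoracic aorta RNA was measured on 6 Illumina bead arrays in 4 groups, each from 5 pooled mice. Per the file headers, the deposited intensity is the mean signal of a probe's beads, with its bead count and detection p-value. Raw medians of 110 to 130.5 differed between arrays, so the intensities had not been normalized. The deposited log2 table equals, within 1e-08 for 271686 of 271686 values, what neqc (limma 3.58.1, R 4.3.3; normexp background correction from detection p-values, offset 16, quantile normalization) gave here. GenomeStudio 2011.1 and limma 3.22.1 are named, with no role, per the submitters' processing notes.

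Gene names are those of the platform annotation, updated through RefSeq's GRCm38.p6 gene table (34885 probes had 1 symbol, 34807 of them matched). The limma model had 2 residual degrees of freedom, plus 3.75 from its prior (SD 0.15), and the number of arrays limits the precision. The members and gene lists were chosen with earlier results of these data known. Beside the members, the rule named pathway genes that passed in a comparison (up to 6 each), up to 4 of the brightest markers per cell type and the 3 genes most like a member. Other genes (Camk2n1, Camk2n2, Nosip, Nostrin, Prmt6, Ehd2, Cldn5, Pecam1, Icam2, Cdh5, Robo4, Tagln, Lmod1, Ppp1r14a, Myocd, Myh6, Slc4a1, Nppa, Tnni3, Sln) were named after their values were seen. The fits were tested on simulated data in which all 6 arrays varied alike. That test could not check whether the lone saline arrays vary like the Ang-II arrays. Alternatives changed the background correction, the offset, the detection filter, the rule for several probes, the array weights and the prior, used the deposited table, left out each Ang-II array, or added a replicate block.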

Additional observations from a re-analysis of the deposited data

Results flagged for a closer look

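Pln and Cavin4 drew attention because their Ang-II responses differed between the genotypes by the test of that difference itself. For Pln, the TG response exceeded the WT response by 4.16 ± 0.25 on the log2 scale (limma adjusted p = 0.00284), with both TG Ang-II arrays above TG saline and both WT Ang-II arrays below WT saline. Over its alternatives the value ran from 3.03 to 4.28, and all passed. For Cavin4 the fitted difference was 2.24 ± 0.22 (limma adjusted p = 0.0201), but its probe was detected on the 2 TG Ang-II arrays alone and met the filter only through them, so this value is a description and no bound. It did not pass with no detection filter (limma adjusted p = 0.0502) or without WT Ang-II array 1 or 2 (0.111 each).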

How the results depend on the processing

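Each result was recomputed under 13 alternatives, and the genotypes under Ang-II also from the 4 Ang-II arrays alone (0 members passing). The deposited table, 1 of the 13, holds the same values as the main fit, so it could change nothing. Apart from left-out arrays, the count of the 8 members passing moved by more than 1.5 times under 5 settings. Quantile normalization without background correction gave 5 in TG, 5 in WT, and 1 (Nos3) between the genotypes under each treatment, and so did a trended robust prior. An offset of 50 gave 4 in TG and 1 (Nos3) between genotypes under saline, no detection filter gave 1 in TG, and the mean of a gene's probes gave 4 in WT. The share of all genes called also moved. Against 6.78% in TG it was 13.1%, 13.4% and, with no filter, 1.70%. Against 8.72% in WT it was 17.9%, 18.6% and 2.47%, with 13.8% at an offset of 50. Between the genotypes, quantile normalization and the trended prior gave 11.2% and 11.7% under Ang-II, against 5.35%. Under saline they gave 4.3% and 4.87%, against 0.163%, with 2.07% at an offset of 50. With each Ang-II array left out, members passing ran from 1 to 2 in TG, 1 to 3 in WT and 3 to 4 in the average, with 0 between genotypes; the lowest counts came without WT Ang-II array 1 or 2 and, in TG, also without TG Ang-II array 2. The share of all genes called in WT dropped to 1.73% and 1.44% without WT Ang-II array 1 and 2. Same-numbered Ang-II arrays deviated together only weakly (correlation 0.115, 2 pairs), so the numbers were not taken to pair arrays. A replicate block gave 3 members in TG (Pde5a added), 3 in WT (Gucy1b1 added) and 5 in the average.

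With the mean of a gene's probes, Prkg1 reversed for Ang-II in TG (0.10) and in the average (0.019), for the genotypes under saline (-0.020) and for the difference of responses (0.16). Gucy1a1 then reversed for the genotypes under Ang-II (-0.18), and Cavin1 in the average (0.44). With Ang-II arrays left out, Gucy1a1 between genotypes under Ang-II ran from -0.025 (without WT array 2) to 0.094, and was also below 0 without TG array 1 (-0.023). The Cav1 difference of responses ran from -0.0087 (without TG array 1) to 0.217. The cause was not tested. Each saline group had 1 array, so saline values have no replicate check.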
